A study of Mus musculus with 6 samples.

Results

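The genes described here encode the enzymes and regulators of fatty acid, triglyceride and cholesterol synthesis. They were taken as a list of 41 genes, and every named probe of each was read. Of these, 38 genes had at least 1 probe (72 probes, of 45281 on the array), among 19057 genes with a named probe. High enough above background to be tested were 36 of them, with 56 probes, among 12864 genes. No named probe was assigned to Acsl1, Hmgcs1 or Fdft1, and the probes of Acaca and Me1 did not pass the filter on low values.

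Mammary tumours were taken at 12 weeks from female FVB mice (a strain given as pure), and their RNA was measured on Illumina bead arrays, 1 per sample. Each sample is called a tumour here. The 3 PyMT/ETP tumours (also labelled PyMT/C5) carried both the endotrophin and the PyMT transgene, and the 3 PyMT control tumours carried PyMT alone. PyMT is the polyomavirus middle T oncoprotein, placed under the MMTV promoter, which is active in mammary epithelium, and endotrophin is a cleaved fragment of the collagen VI alpha 3 chain. The labels do not name the promoter of the endotrophin transgene or the number of mice behind the samples, so p-values here rest on a spread between samples that may be technical. No named probe was assigned to Col6a3, and the transgene was therefore not checked.

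Fatty acids are built in the cytosol from acetyl-CoA, which Acly makes from citrate and Acss2 from acetate; Acaca and Fasn turn it into palmitate, which is then elongated and desaturated, activated to acyl-CoA and esterified to glycerol. Cholesterol is built from the same precursor through mevalonate, squalene and lanosterol. Both branches are under the SREBP transcription factors, encoded by Srebf1 and Srebf2, which Scap escorts out of the endoplasmic reticulum when sterols are low and which Insig1 and Insig2 hold back when sterols are high. In the mammary gland this machinery is best known for supplying milk fat, and many carcinomas also run it.

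Levels are given as log2 intensity after background correction and addition of 16, on which the 5% background limit was 4.61. The offset makes fold changes of dim genes too small, and levels of different probes cannot be set against each other. The luminal epithelial markers Krt8, Krt18, Krt19, Cdh1, Epcam, Cldn3, Cldn4 and Cldn7 were all measured (8 of 8), as were 12 of 14 milk and secretory genes. PyMT control replicates 2 and 3 stood apart in skin keratinocyte and hair genes, with 11 of 12 measured. The mean deviation of those genes from the 6-array mean was -1.05, -1.02 and -1.28 log2 units in PyMT/ETP tumours and -0.86, 1.79 and 2.42 in PyMT control tumours, and Krt1 was below the filter.

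No member differed between PyMT/ETP and PyMT control tumours by limma's test. At adjusted p 0.05, 0 of the 36 members passed, and so did 0 of the 12864 genes (0%), with a lowest adjusted p of 0.997. At unadjusted p 0.05 there was 1 member, Mvd, or 2.78% of the members, against 4.31% of all genes. In limma's fit over all probes, 0 of the 56 member probes were under 0.05, and that of Mvd had an unadjusted p of 0.0536. The groups did not overlap for 2 members (5.56%), Srebf2, which was higher, and Mvd, which was lower. Over all genes the groups did not overlap for 8.17%, of which 4.52% were higher and 3.65% lower in PyMT/ETP tumours. Neither share of the members was above that of all genes.

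By sign, 14 members had a positive and 22 a negative difference, so 61.1% were negative, against 49.2% of all genes tested. The median log2 difference was -0.081 over the members and 0.0041 over all genes. It was -0.020 when a gene's tested probes were averaged, and without PyMT/ETP replicate 1, PyMT/ETP replicate 2 or PyMT control replicate 2 it was -0.027, -0.041 or -0.034. No member differed by more than 1.5-fold: the differences ran from -0.43 for Thrsp to 0.26 for Elovl5. The 95% confidence interval lay wholly within 1.5-fold in either direction for 24 of the 36 members (66.7%), against 61.3% of all genes. For the other 12 a difference of that size was not excluded. Nor can it be called excluded for the 24. The spread may be technical, and the offset makes differences of dim probes, such as that of Fasn, too small.

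**Figure D1:**
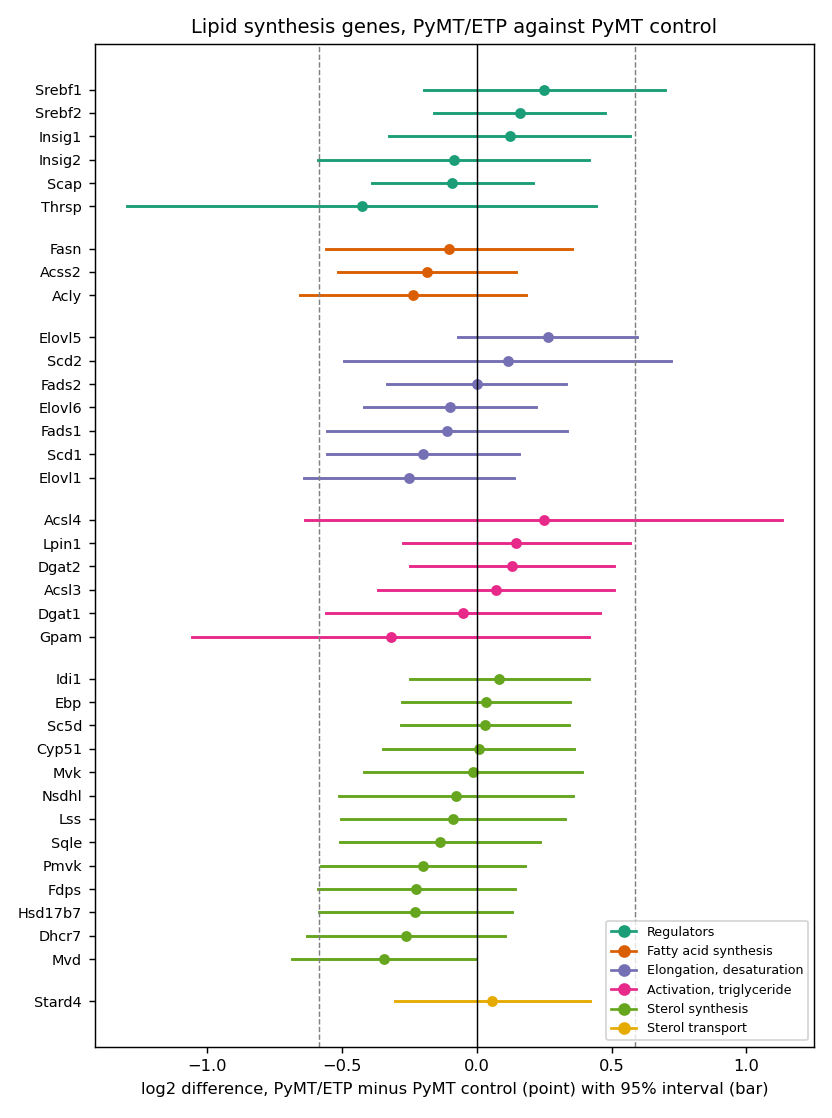
Log2 difference of each of the 36 tested members between the 3 PyMT/ETP and the 3 PyMT control tumours (x axis, points), with limma's 95% confidence interval (bars), by role from top to bottom; dashed lines mark 1.5-fold. Apart from Mvd, every interval spans 0, and the widest are those of Thrsp, Acsl4 and Gpam.

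RefSeq's promoter table (build GRCm38.p6) held 44 windows, each from 250 bases before to 50 bases after a transcription start, for 32 of the 41 genes. Those of Mvd and Srebf2, whose groups did not overlap, and of Thrsp and Acsl4, the most variable members, are shown to give the sequence around the start of each. Capitals mark, on either strand, the sterol regulatory element core written TCACNCCA, the box bound by NF-Y and written CCAAT, the GC box, written GGGCGG, and the E-box, written CACGTG.
Mvd, chr8:122443373-122443672, minus strand: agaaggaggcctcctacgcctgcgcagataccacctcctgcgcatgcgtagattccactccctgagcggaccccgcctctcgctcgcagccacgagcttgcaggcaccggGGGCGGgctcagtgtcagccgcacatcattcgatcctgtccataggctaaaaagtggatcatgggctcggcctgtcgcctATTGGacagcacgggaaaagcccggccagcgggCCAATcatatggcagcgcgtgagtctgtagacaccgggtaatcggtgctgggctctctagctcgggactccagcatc
Srebf2, chr15:82147019-82147318, plus strand: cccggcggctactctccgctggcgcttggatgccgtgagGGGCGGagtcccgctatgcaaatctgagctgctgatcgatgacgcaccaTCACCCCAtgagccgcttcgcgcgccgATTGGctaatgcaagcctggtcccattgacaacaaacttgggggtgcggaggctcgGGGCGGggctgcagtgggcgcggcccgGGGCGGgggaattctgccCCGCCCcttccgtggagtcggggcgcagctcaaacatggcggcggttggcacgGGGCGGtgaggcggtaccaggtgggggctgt
Thrsp, chr7:97417501-97417800, minus strand: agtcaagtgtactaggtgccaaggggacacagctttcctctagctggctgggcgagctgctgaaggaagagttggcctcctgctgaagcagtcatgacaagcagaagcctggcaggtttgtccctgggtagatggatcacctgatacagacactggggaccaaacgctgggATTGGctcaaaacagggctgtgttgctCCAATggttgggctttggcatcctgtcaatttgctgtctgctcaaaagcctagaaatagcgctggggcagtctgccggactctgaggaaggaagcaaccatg
Acsl4, chrX:142390486-142390785, minus strand: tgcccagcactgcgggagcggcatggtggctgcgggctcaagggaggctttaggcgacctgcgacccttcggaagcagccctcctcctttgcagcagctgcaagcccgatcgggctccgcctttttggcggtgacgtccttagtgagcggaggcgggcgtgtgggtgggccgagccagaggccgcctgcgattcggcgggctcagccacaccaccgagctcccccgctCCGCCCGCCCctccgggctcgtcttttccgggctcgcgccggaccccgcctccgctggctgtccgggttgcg

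The windows of Mvd and Thrsp each held 2 CCAAT boxes and that of Srebf2 held 1, beside 5 GC boxes and 1 sterol element core. Acsl4 had no CCAAT box and 2 overlapping GC boxes. The CCAAT box was in 27 of the 44 windows of the list (61.4%), against 37.4% of all 32851 windows and 37.3% of the windows of genes tested here. GGGCGG was in 30 of them (68.2%), against 35.7% of all windows and 58.0% of those of tested genes. The sterol element core was in 4 (9.09%), against 4.36% of all windows and 3.85% of those of tested genes. The E-box was in 7 (15.9%), against 7.15% and 9.36%. The median log2 difference was -0.085 over the 23 tested members with a CCAAT box and -0.00050 over the 5 without. For the GC box the order was the other way, -0.046 over the 22 with and -0.100 over the 6 without, and for the E-box too, -0.030 over 6 and -0.081 over 22. For the sterol element core the medians were -0.080 over 2 and -0.081 over 26. These matches are letters in a window and say nothing of binding.

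Among the regulators, the transcription factor genes had positive differences and the others went both ways. Srebf2, the factor of the cholesterol branch, was at 9.002, 8.93 and 8.95 log2 units in PyMT/ETP tumours and at 8.86, 8.91 and 8.63 in PyMT control tumours. Each PyMT/ETP tumour was above each control, by a narrow margin (log2 difference 0.16, SE 0.14). A dimmer Srebf2 probe had the opposite sign, -0.17, and the mean of both was -0.0038. Srebf1, the factor of the fatty acid branch, was at 10.002, 9.32 and 9.70 in PyMT/ETP tumours and at 9.62, 9.35 and 9.30 in controls. PyMT/ETP replicate 1 was highest and the groups overlapped. The difference of 0.25 (SE 0.20) became 0.088 when PyMT/ETP replicate 1 was left out and 0.43 when PyMT/ETP replicate 2 was. It was 0.051 without PyMT control replicates 2 and 3.

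The retention protein gene Insig1 was at 8.74, 8.88 and 8.62 in PyMT/ETP tumours and at 9.04, 8.45 and 8.39 in controls, with the highest and the lowest value both among the controls. Its difference of 0.12 turned to -0.29 without PyMT control replicates 2 and 3, and to -0.046 with its probes averaged. Insig2 had a difference of -0.085 and Scap one of -0.091. Scap varied least among all the members, with a within-group SD of 0.070 log2 units.

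Thrsp, or Spot 14, which supports fatty acid synthesis in the lactating mammary gland, had the widest difference of the list and did not pass. It was at 10.72, 10.66 and 9.81 log2 units in PyMT/ETP tumours and at 10.60, 10.21 and 11.66 in PyMT control tumours. PyMT control replicate 3 was well above every other array, and PyMT/ETP replicate 3 was lowest. The difference was -0.43 (SE 0.38), -0.13 without PyMT/ETP replicate 3 and -0.0087 without PyMT control replicate 3. The last of these arrays was also the highest for Csn1s1 and Csn2, though not for Csn3, all casein genes: Csn2 was at 9.63, 10.27 and 10.25 in PyMT/ETP tumours and at 10.42, 9.89 and 12.89 in controls. Over the 12 measured milk and secretory genes of 14 listed, summed intensity ran from 72960 to 78280 in PyMT/ETP tumours and from 74130 to 90590 in controls, with Csn1s2a and Olah below the filter. Their part in the Thrsp values was not tested.

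The 3 tested enzymes of fatty acid synthesis all had negative differences, within the spread between tumours. Acly was at 12.57, 12.35 and 11.93 in PyMT/ETP tumours and at 12.43, 12.48 and 12.65 in controls. PyMT/ETP replicate 1 lay inside the control range and the other 2 below it. The difference of -0.24 (SE 0.18) was -0.063 without PyMT/ETP replicate 3. Acss2 had a difference of -0.19 (SE 0.14), with 2 of the PyMT/ETP tumours, at 8.14 and 8.15, below the controls, which began at 8.39. Fasn, the multienzyme that assembles palmitate, was read by a dim probe.

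That Fasn probe was at 5.63, 5.20 and 5.11 in PyMT/ETP tumours and at 5.10, 5.61 and 5.54 in controls. The groups overlapped over their whole range (difference -0.10, SE 0.20), and the sign turned, to 0.21, without PyMT control replicates 2 and 3. Acaca, the carboxylase of the committed step, was between 4.20 and 4.42 in PyMT/ETP tumours and between 4.17 and 4.39 in controls, below the background limit on every array. Me1, an NADPH-producing malic enzyme, was above that limit only in PyMT/ETP replicate 2, at 4.80. Neither gene could therefore be compared, and nothing is known here of their expression.

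Among elongases and desaturases, 2 of 7 had positive and 5 negative differences. Elovl5, which elongates polyunsaturated fatty acids, had the largest positive difference of the list, at 11.002, 11.18 and 10.94 in PyMT/ETP tumours and at 10.94, 10.71 and 10.68 in controls. The groups met at PyMT/ETP replicate 3 and PyMT control replicate 1 (difference 0.26, SE 0.15). This sign held under all 16 other settings tried, but the difference was 0.098 without PyMT control replicates 2 and 3. Elovl1, which makes very long saturated chains, was at 9.95, 10.17 and 10.005 in PyMT/ETP tumours and at 10.02, 10.56 and 10.29 in controls (difference -0.25, SE 0.17). Its 4 tested probes all gave negative differences, the other 3 between -0.083 and -0.0024, and without PyMT control replicates 2 and 3 the difference was 0.018.

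Scd1, the desaturase that makes oleate and palmitoleate, was at 12.71, 12.29 and 12.59 in PyMT/ETP tumours and at 12.65, 12.72 and 12.82 in controls. Only PyMT/ETP replicate 1 reached the control range (difference -0.20, SE 0.16). Its paralog Scd2 was at 8.15, 8.02 and 8.70 in PyMT/ETP tumours and at 8.47, 8.42 and 7.64 in controls, with PyMT control replicate 3 lowest and PyMT/ETP replicate 3 highest. The Scd2 difference of 0.11 (SE 0.26) turned to -0.18 without PyMT control replicates 2 and 3. Elovl6, which extends palmitate to stearate, was at 8.37, 8.52 and 8.53 in PyMT/ETP tumours and at 8.61, 8.68 and 8.43 in controls (difference -0.098, SE 0.14). The polyunsaturated fatty acid desaturases Fads1 and Fads2 had differences of -0.11 and -0.00050.

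**Figure D2:**
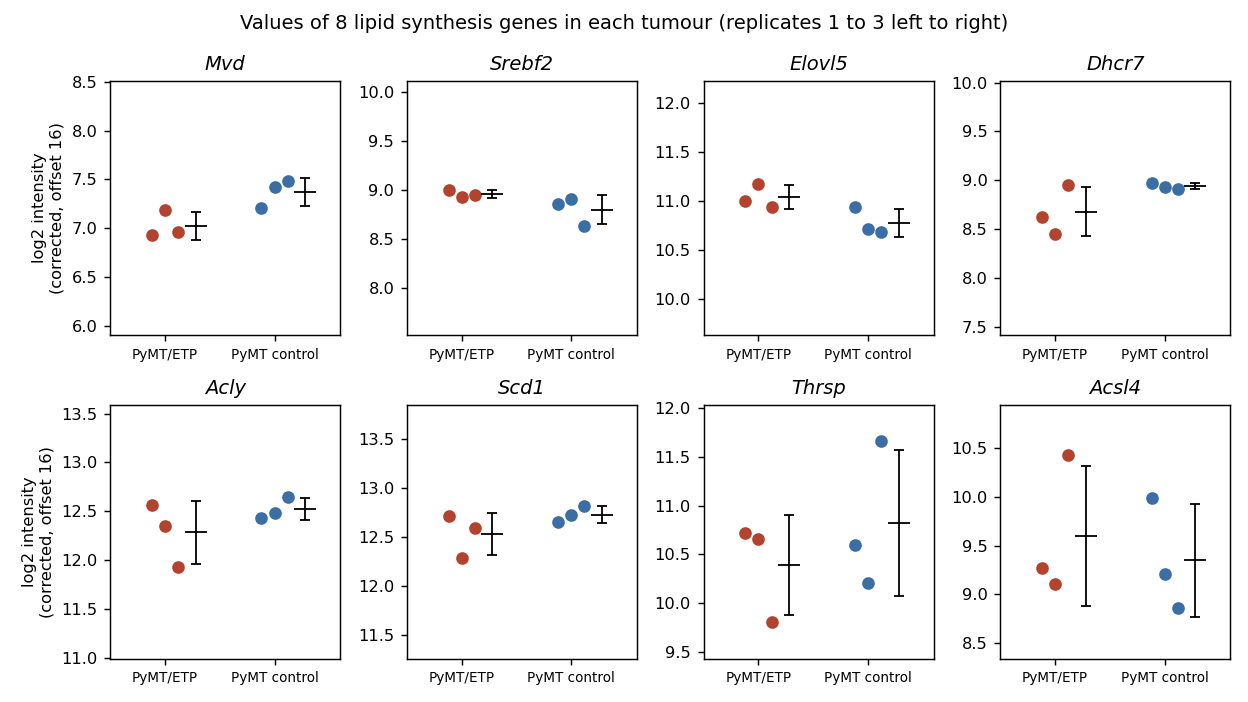
Log2 intensity (y axis, each panel spanning the same number of log2 units) of 8 members in each PyMT/ETP tumour (red, left) and PyMT control tumour (blue, right), replicates 1 to 3 from left to right, with the mean and SD of the 3 tumours beside them. The groups are separate for Mvd and Srebf2 and overlap for the other 6, where single tumours such as PyMT control replicate 3 for Thrsp lie far from the rest.

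The genes for fatty acid activation and triglyceride assembly included the members that varied most within groups. Acsl4, an acyl-CoA synthetase that prefers arachidonate, was at 9.27, 9.11 and 10.43 in PyMT/ETP tumours and at 9.99, 9.21 and 8.86 in controls. PyMT/ETP replicate 3 was highest and PyMT control replicate 1 next, and the same order was seen with both other tested probes. The second probe was at 8.37, 8.43 and 9.55 in PyMT/ETP tumours and at 9.01, 8.54 and 8.23 in controls. The third was at 6.70, 7.22 and 8.33 in PyMT/ETP tumours and at 7.72, 7.38 and 6.94 in controls. The difference of 0.25 (SE 0.39) was -0.17 without PyMT/ETP replicate 3, 0.57 without PyMT control replicate 1 and 0.0003 without PyMT control replicate 3.

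The within-group SD of Acsl4, 0.65 log2 units, was at the 98.1th percentile of all genes tested, and that of Thrsp, 0.64, at the 98.0th. Gpam, at 0.53, and Scd2, at 0.42, also lay above the 90th percentile. The 2 arrays highest in Acsl4 were the lowest in adipocyte markers, of which 12 of 19 were measured. The mean deviation of those markers was 0.23, 0.067 and -0.45 log2 units in PyMT/ETP tumours and -0.37, 0.43 and 0.090 in controls. The same 2 arrays were also the lowest in milk and secretory genes. Their mean deviations in that list were -0.36 in PyMT/ETP replicate 3 and -0.33 in PyMT control replicate 1. Adipoq, the adipocyte hormone adiponectin, was at 8.40, 7.88 and 6.51 in PyMT/ETP tumours and at 6.95, 8.65 and 8.20 in controls. Summed adipocyte intensity ran from 2467 to 3365 in PyMT/ETP tumours and from 2801 to 3905 in controls, with Plin1, Retn, Fabp4, Cd36 and Aqp7 below the filter. The part of fat cells or of milk secretion in these values was not tested. In bulk tumours fewer cells of a type and less RNA per cell cannot be told apart.

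Gpam, the mitochondrial acyltransferase that starts glycerolipid synthesis, was at 5.15, 4.57 and 4.73 in PyMT/ETP tumours and at 5.44, 5.62 and 4.35 in controls. PyMT/ETP replicate 2 and PyMT control replicate 3 were below the background limit. The difference of -0.32 (SE 0.32) became -0.71 when PyMT control replicate 3 was left out and -0.078 when PyMT control replicate 2 was. Lpin1, a phosphatidate phosphatase, was at 6.47, 6.75 and 6.999 in PyMT/ETP tumours and at 6.66, 6.35 and 6.77 in controls, with overlap (difference 0.15, SE 0.18). Dgat2, which adds the last acyl chain of triglyceride, was at 7.78, 7.80 and 7.70 in PyMT/ETP tumours and at 7.32, 7.77 and 7.80 in controls. Only PyMT control replicate 1 stood below the rest, and the Dgat2 difference of 0.13 was -0.023 without it. Dgat1, the other enzyme of that step, had a difference of -0.051, and the acyl-CoA synthetase gene Acsl3 one of 0.070.

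In the mevalonate and sterol pathway, 9 of 13 tested enzymes had negative and 4 positive differences, and none passed. The median was -0.087 log2 units. Leaving out PyMT/ETP replicate 3 gave -0.21, leaving out PyMT/ETP replicate 1 gave -0.022, and averaging the probes of each gene gave -0.016. The mean deviation of the 13 genes was -0.100, -0.061 and -0.0028 in PyMT/ETP tumours and 0.051, 0.017 and 0.096 in controls. Every PyMT/ETP tumour was thus below every control in this mean, by a narrow gap (-0.0028 against 0.017). The mean includes Mvd, the only gene of the 13 with separate groups. No other role had separate groups in its mean. The mean over all 36 tested members did, at -0.013, -0.068 and -0.0033 in PyMT/ETP tumours and 0.042, 0.031 and 0.011 in controls. That gap too was narrow, and that mean includes the 13 sterol genes. Among all single genes the groups did not overlap for 8.17%. Values of marker genes of cell types varied as well. Of the 8 luminal markers 4 did not overlap (50%), against 8.17% of all genes, with Krt8, Krt19 and Cldn4 lower and Epcam higher. The mean deviation of the 8 was -0.20, -0.17 and 0.11 in PyMT/ETP tumours and -0.0089, 0.19 and 0.072 in controls. Macrophage markers had positive differences for 6 of 7 measured and fibroblast markers for 6 of 6, with medians of 0.26 and 0.11 log2 units. Of all genes, 50.8% had positive differences. Mean fibroblast deviations overlapped, at 0.63, -0.0021 and -0.42 in PyMT/ETP tumours and -0.10, 0.11 and -0.22 in controls. Endothelial markers were positive for 5 of 5, lymphocyte markers negative for 4 of 4 and milk and secretory genes for 11 of 12. None of these genes passed limma's test after adjustment, and their part in the sterol values was not tested.

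Mvd, the decarboxylase that yields isopentenyl diphosphate, was at 6.93, 7.19 and 6.96 in PyMT/ETP tumours and at 7.21, 7.42 and 7.49 in controls. PyMT/ETP replicate 2 and PyMT control replicate 1 were almost level, and the other tumours lay further apart. The mean was 7.03 ± 0.14 in PyMT/ETP and 7.37 ± 0.15 in control tumours (SD, n = 3 each), a log2 difference of -0.35 (SE 0.15). Its fold was 0.787, and limma's test over genes gave an unadjusted p of 0.0476 and an adjusted p of 0.997. Over probes, limma's unadjusted p for Mvd was 0.0536. With 1 array left out the difference ran from -0.43 to -0.29, and without PyMT control replicates 2 and 3 it was -0.18.

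Dhcr7, which makes cholesterol from its last sterol precursor, was at 8.63, 8.45 and 8.96 in PyMT/ETP tumours and at 8.98, 8.93 and 8.91 in controls. The controls were tightly grouped and PyMT/ETP replicate 3 lay among them (difference -0.26, SE 0.16). Hsd17b7, a sterol ketoreductase, also had PyMT/ETP replicate 3 among the controls, at 9.23, 9.31 and 9.64 in PyMT/ETP tumours and at 9.70, 9.51 and 9.65 in controls (difference -0.23, SE 0.16). For Fdps, the farnesyl diphosphate synthase, it was replicate 1 that lay with the controls, at 11.05, 10.79 and 10.58 in PyMT/ETP tumours and at 10.94, 11.04 and 11.12 in controls (difference -0.22, SE 0.16). The PyMT/ETP tumour that reached the control range thus differed from gene to gene.

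Sqle, the epoxidase that commits squalene to sterols, was at 9.87, 10.17 and 10.27 in PyMT/ETP tumours and at 10.40, 10.25 and 10.08 in controls, with overlap (difference -0.14, SE 0.16). Cyp51, the lanosterol demethylase, was at 7.61, 7.62 and 7.37 in PyMT/ETP tumours and at 7.74, 7.46 and 7.38 in controls, a difference of 0.0067. Idi1, the isomerase after Mvd, was at 6.86, 6.69 and 6.58 in PyMT/ETP tumours and at 6.58, 6.77 and 6.53 in controls, a difference of 0.084. Of the kinases before Mvd, Pmvk had a difference of -0.20 and Mvk one of -0.014. The later enzymes Lss (-0.087), Nsdhl (-0.077), Ebp (0.036) and Sc5d (0.031) differed by less than their SDs in at least 1 of the groups. Stard4, which carries cholesterol between membranes, was at 8.29, 8.26 and 8.05 in PyMT/ETP tumours and at 8.36, 8.11 and 7.95 in controls (difference 0.058).

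**Figure D3:**
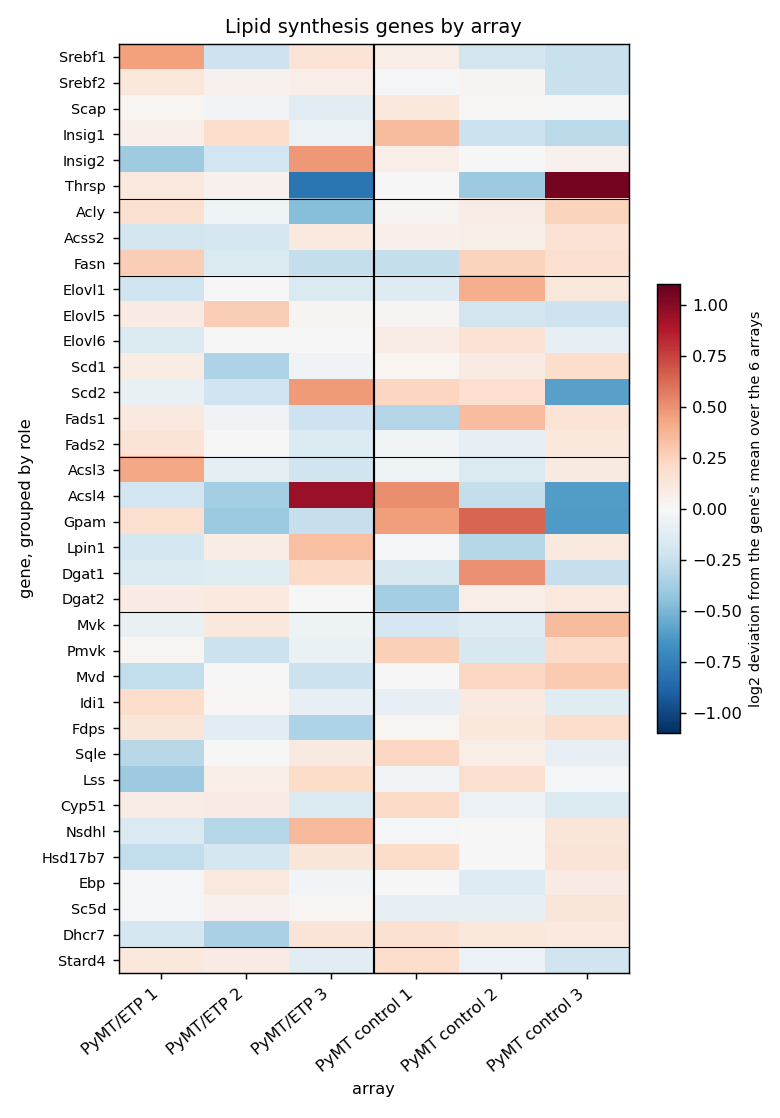
Deviation of each tested member (rows, by role) from its own mean over the 6 arrays, in log2 units (colour), with the 3 PyMT/ETP arrays left of the line and the 3 PyMT control arrays right of it. The strongest colours are single cells, such as Thrsp in PyMT control replicate 3 and Acsl4 in PyMT/ETP replicate 3, not whole groups.

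No array was the highest or the lowest for most of the members. The mean deviation of all members was lowest in PyMT/ETP replicate 2, at -0.068. That array was the highest for 3 members (8.33%), against 14.4% of all genes, and the lowest for 4 (11.1%), against 13.1%. PyMT/ETP replicate 1 was the lowest of the 6 arrays for 8 members (22.2%), against 16.2% of all genes, and the highest for 6 (16.7%), against 18.3%. PyMT control replicate 3 was the lowest for 10 (27.8%), against 20.5% of all genes, and the highest for 8 (22.2%), against 19.0%. PyMT control replicate 1 was the highest for 8 members (22.2%), against 13.4% of all genes. Of 14 members with more than 1 tested probe, the probes gave 1 sign for 6 and mixed signs for 8, among them Srebf2, Scap, Insig1, Insig2, Fads2, Lpin1, Lss and Nsdhl.

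Of 48 further genes of lipid synthesis and its control, 40 had a named probe and 34 were tested, and 0 passed in limma's test. At unadjusted p 0.05 there were 2 (5.88%), against 4.31% of all genes. Their median log2 difference was -0.10, with 14 positive and 20 negative. The mean deviation of the 34 was -0.014, -0.030 and -0.14 in PyMT/ETP tumours and -0.0051, 0.11 and 0.079 in controls. The groups were thus separate in this mean as well, by a narrow gap (-0.014 against -0.0051). Msmo1, the sterol methyl oxidase between Cyp51 and Nsdhl, was at 8.0045, 8.10 and 8.14 in PyMT/ETP tumours and at 8.68, 8.5003 and 8.26 in controls. The groups did not overlap (difference -0.40, SE 0.15). Nr1h3, the oxysterol receptor LXR alpha, was at 6.23, 6.19 and 6.06 in PyMT/ETP tumours and at 6.28, 6.96 and 6.73 in controls, also without overlap (difference -0.50, SE 0.19). In all, the groups did not overlap for 4 of the 34 (11.8%), 1 of them higher and 3 lower, against 8.17% of all genes (4.52% higher and 3.65% lower).

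Fabp5, a fatty acid binding protein of epidermis, had a difference of -0.47 (SE 0.21). Elovl4, an elongase of very long chains used in the skin barrier, was at 5.82, 5.22 and 4.53 in PyMT/ETP tumours and at 4.93, 6.78 and 7.69 in controls, a difference of -1.27 (SE 0.63). Its highest values were in PyMT control replicates 2 and 3, the arrays high in keratinocyte and hair genes, whose summed intensity was between 544.4 and 605.4 in PyMT/ETP tumours and 755.4, 4072 and 7857 in controls. Sebaceous gland markers, with 5 of 11 measured, summed to between 7365 and 8623 in PyMT/ETP tumours and between 6624 and 9284 in controls. That sum was almost wholly Mgst1, a widely expressed enzyme gene, and so it does not measure sebaceous tissue. Of the listed genes Awat1, Scd3, Far2, Dgat2l6 and Elovl3 were below the filter, and Soat1 had no named probe. Awat2, among the 5 measured, was at 5.54, 4.48 and 4.93 in PyMT/ETP tumours and at 4.89, 6.04 and 4.48 in controls. It was above the background limit on 2 arrays of each group. The part of skin in the lipid genes was not tested.

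**Figure D4:**
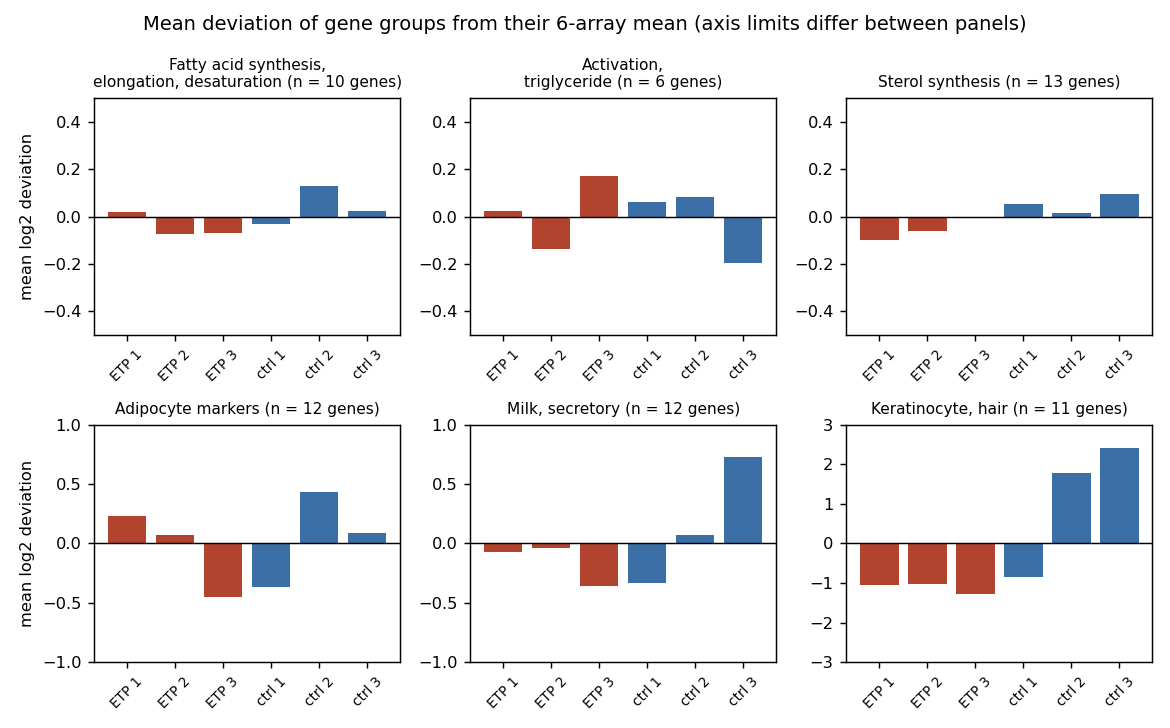
Mean deviation from the 6-array mean, in log2 units (bars, y axis, limits differing between panels), of 3 groups of members (top, with fatty acid synthesis, elongation and desaturation merged) and of markers of adipocytes, milk secretion and keratinocytes and hair (bottom), in PyMT/ETP (red) and PyMT control (blue) tumours. These 3 groups of members stay within 0.2 of 0, while the marker lists reach -0.45 for adipocytes, 0.73 for milk genes and 2.42 for keratinocyte and hair genes in single arrays.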

How the data were processed

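The authors deposited 1 linear intensity per probe for each of the 6 arrays. For the software and normalization behind these, nothing is stated in the labels. When sorted, the arrays' deposited intensity values lay within 0.19 of each other, which is what equalising whole arrays gives. A table from before normalization, with 24 value columns named only by chip and position, was not used here, since no label pairs these with samples. No chip or position was therefore tested as a batch.

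The background, estimated from the lowest 60% of values, had its mode at 86.1 and an SD of 4.83. The normexp model of limma was applied, 16 was added and log2 taken. Probes above the 5% background limit, 94, on at least 3 arrays were tested, and a gene was represented by its brightest tested probe. Symbols came from the platform annotation (34885 probes with 1 symbol, 18 with several, 10378 with none), updated by gene ID through RefSeq for 34807.

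Groups were compared with limma 3.58.1 in R 4.3.3 (lmFit, eBayes, two-sided), with Benjamini-Hochberg adjustment over all 12864 genes or 24893 probes. The number of arrays limits the precision, and an exact permutation test of 3 against 3 cannot go below 0.1. The fit was run on simulated data with planted differences larger than that of any member. That run does not test differences of the size seen here. Members, lists and motifs were chosen with earlier results of these data known, so medians and counts of a list are descriptions. Per-array values are given for 20 members fixed by role and for up to 5 in each direction of smallest p. Of the other lists, up to 4 genes of smallest p were eligible. Alternatives covered background, offset, filter, probe choice, normalization, weights, trend, pairing and arrays left out. Same-numbered tumours did not deviate together (correlations of -0.0649, -0.0588 and -0.109 across genes). The labels do not say whether the numbers pair samples, and correlations from 3 arrays a group cannot settle it.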

Additional observations from a re-analysis of the deposited data

How the results depend on the processing

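With 3 arrays a group, intensities over background bound what can be seen, and dim probes (Fasn, Gpam) have understated differences. Under all 16 other settings 0 members passed. Over all genes 16 passed without PyMT control replicate 1, against 0 without each other single array, and 1 passed without PyMT control replicates 2 and 3; none was a member. With the replicate block 0 genes passed and the members' median was -0.0813; it changed no call.

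The members' median was -0.040 without background correction, -0.020 with probes averaged and -0.118 without PyMT control replicates 2 and 3, and ran from -0.077 to -0.027 with 1 array left out. For fatty acid synthesis, elongation and desaturation it ran from -0.22 to -0.044 with 1 array left out, for activation and triglyceride from -0.075 to 0.12 (negative without PyMT/ETP replicate 3) and for sterol synthesis from -0.21 to -0.022. The sterol median was -0.016 with probes averaged, -0.15 with array weights and -0.13 without PyMT control replicates 2 and 3, where the regulators' median was -0.14.

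Of 36 members, 17 kept 1 sign throughout. For the others the sign turned in at least 1 setting, and the cause was not tested. With array weights Mvk was at 0.044, Fads2 at 0.018 and Scd2 at -0.016. With probes averaged Srebf2 was at -0.0038, Insig1 at -0.046, Insig2 at 0.058, Fads2 at 0.13 and Nsdhl at 0.0009. Without background correction Fads2 was at 0.0002. Without PyMT control replicates 2 and 3 the signs also turned for Scd2 (-0.18), Elovl1 (0.018), Fasn (0.21), Fads2 (0.027), Acsl4 (-0.39), Dgat1 (0.15), Insig1 (-0.29), Mvk (0.18), Cyp51 (-0.20), Fads1 (0.27) and Stard4 (-0.17). With 1 array left out, the difference ran from -0.34 to 0.087 for Insig2, -0.26 to 0.0015 for Fasn, -0.15 to 0.26 for Scd2, -0.30 to 0.032 for Fads1, -0.078 to 0.076 for Fads2, -0.13 to 0.20 for Acsl3, -0.17 to 0.57 for Acsl4, -0.19 to 0.19 for Dgat1, -0.023 to 0.22 for Dgat2, -0.11 to 0.16 for Mvk, -0.21 to 0.089 for Lss, -0.068 to 0.11 for Cyp51, -0.28 to 0.059 for Nsdhl, -0.025 to 0.091 for Ebp, -0.0075 to 0.11 for Sc5d and -0.036 to 0.17 for Stard4.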
